A study of Mus musculus with 2 samples.

Results

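YY1 peaks in mouse adipocytes were examined at 34 genes of fatty acid oxidation and carnitine metabolism, chosen by symbol, out of 21887 nuclear protein-coding genes. Fatty acid oxidation breaks activated fatty acids down for energy, and cold-exposed fat tissue is known for drawing on this pathway. Acyl-CoA synthetases activate the fatty acid, carnitine carries long chains into the mitochondrion, and dehydrogenases, hydratases and thiolases then shorten the chain step by step. Electrons from the dehydrogenases leave through the electron transfer flavoprotein, and peroxisomes run a parallel route for chains that mitochondria handle poorly. YY1 is a zinc finger protein that binds DNA mostly near gene starts and is known to act on genes of mitochondrial function in other tissues.

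The peaks came from mature adipocytes of the inguinal fat pad of male wild-type C57 mice aged 8 to 10 weeks. One group of mice had 7 days of cold stress (cold), the other was raised at room temperature, and each gave 1 library made with an anti-YY1 antibody. The labels name ChIP-seq, whereas their protocol describes CUT&Tag, where a transposase bound through the antibody cuts in native nuclei, so open chromatin can add to the signal. The labels do not state how many mice went into a library. With 1 library per condition, no difference between conditions has a replicate check and no p-value was computed. Peaks are named with a 4 in the cold list and with a 30 in the room temperature list. The meaning of these numbers is not stated, so warmer housing of the library labelled room temperature was not tested.

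The cold list held 1259 peaks and the room temperature list 165. A gene had a peak when a summit, the highest point of a peak, lay inside it or within 1 kb of either of its ends. After cold, 3 of the 34 genes had a peak (8.82%, exact 95% interval 1.86 to 23.7), against 6.42% of all protein-coding genes. At room temperature 1 of the 34 did (2.94%, 0.0744 to 15.3), against 0.864% of all protein-coding genes. Both intervals hold the share of all genes, so the counts do not set the pathway apart. The 3 genes after cold were Ech1 and Eci1, which encode mitochondrial isomerases needed for unsaturated fatty acids, and Crat, which encodes carnitine acetyltransferase. Crat was the gene listed at room temperature.

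The DNA at the starts of Ech1 and Eci1 is shown first, because it holds the letters of the YY1 motif, which the choice of genes did not use. The motif was searched as AANATGGC on both strands, in RefSeq promoters of GRCm38.p6 (the assembly of mm10) that run from 250 bases before to 50 after each annotated start. The matches are in capitals, every sequence runs 5′ to 3′ on its gene's strand, and positions are counted from the annotated start as 0. The Ech1 stretch covers positions -150 to -1 (chr7:28825188-28825337, plus strand) and the Eci1 stretch positions 6 to 35 (chr17:24426689-24426718, plus strand).
Ech1: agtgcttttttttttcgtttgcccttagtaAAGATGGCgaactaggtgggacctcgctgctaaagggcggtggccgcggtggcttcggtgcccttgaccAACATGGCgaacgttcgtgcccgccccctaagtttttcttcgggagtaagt
Eci1: cactgatatccAAGATGGCgctggctgctg

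Ech1 has a match at positions -120 to -113 and another at -51 to -44. The cold summit lay at position -83, between them, 33.5 bp from the middle of the first and 35.5 bp from the middle of the second. Eci1 has a match at positions 17 to 24, and its cold summit lay at position 49, 28.5 bp from the middle of the match. Over the 349 promoters in the genome with both a match and a cold summit inside the window, the median distance from the summit to the nearest match was 22.5 bp and the upper quartile 43.5 bp. The distances at Ech1 and Eci1 fell between these values. The first match of Ech1 and that of Eci1 read AAGATGGC, which is in 2.75% of all promoter windows.

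**Figure D1:**
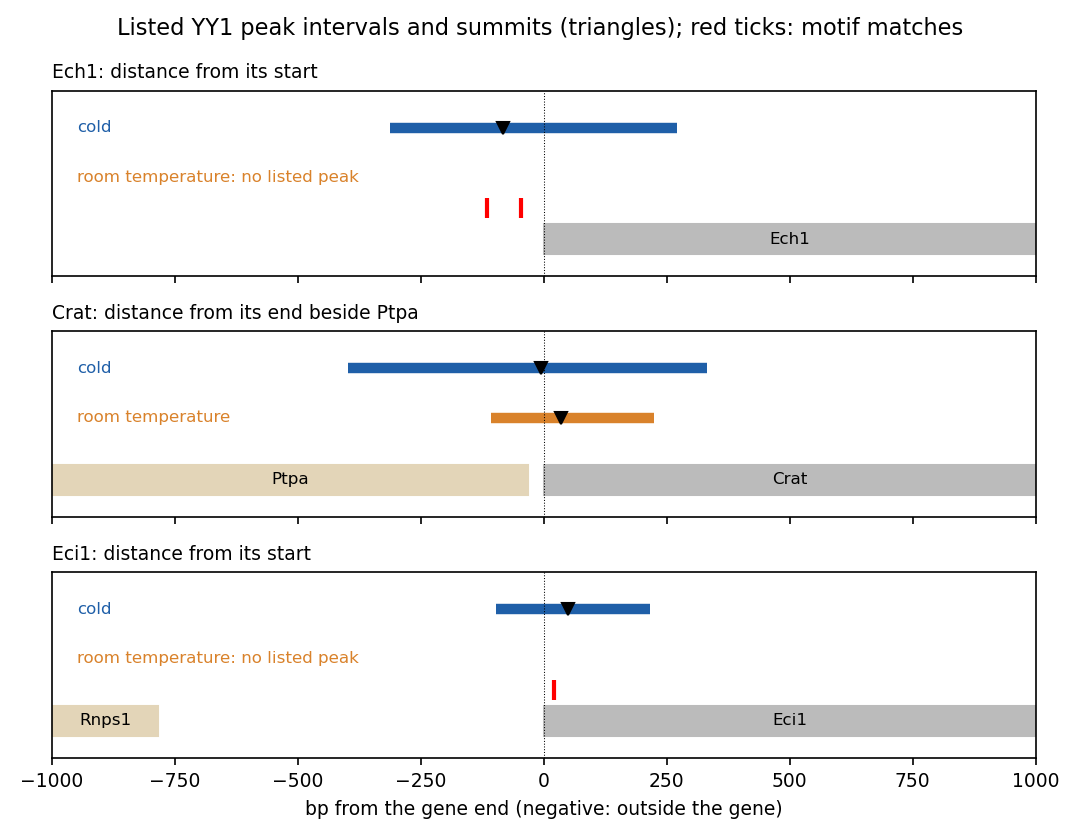
Listed peak intervals (bars) and summits (triangles) at the 3 genes with a peak, in bp from the annotated start of Ech1 and Eci1 or from the end of Crat beside Ptpa, with negative values outside the gene and red ticks at AANATGGC matches. The Ech1 summit lies between its matches at position -83, the Eci1 summit at position 49 beyond its match, and the Crat summits on either side of the gene's end. Crat is drawn without matches because its promoter was not searched. The strand of Crat was not used, so the end drawn may be its start.

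Of the 34 genes, 28 had a promoter in the table, with 29 windows in all, since Acsl1 has 2. Not in it were Acaa2, Acad9, Cpt1b, Crat, Decr1 and Hsd17b4. Of the 29 windows, 2 held AANATGGC (6.90%, 0.846 to 22.8), those of Ech1 and Eci1, against 6.05% of all 32851 promoter windows. Both of these windows held a cold summit, and 0 of the 27 member windows without a match did (upper end of the exact 95% interval 12.8%). The Eci1 summit, at position 49, lay on the last base of its window. Across all promoters, 349 of the 1988 windows with the motif held a cold summit (17.6%, 15.9 to 19.3), and 125 of the 30863 without it did (0.405%, 0.337 to 0.482). A match therefore went without a listed peak in most promoters, and the pattern of the members rests on 2 windows. Of the 474 windows with a cold summit, 73.6% held the motif (69.4 to 77.5).

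The shorter core ATGGC was found in the promoters of 9 members, and 7 of these had no listed peak. It occurs in 40.5% of all promoter windows. Their stretches are printed to show what stands before the core in place of the AAN of the full motif, and capitals mark the core. They cover positions -42 to -13 of Hadhb (chr5:30155211-30155240, plus strand), -135 to -106 of Acad11 (chr9:104063589-104063618, plus strand), -221 to -192 of Cpt1a (chr19:3323080-3323109, plus strand), -215 to -186 of Ehhadh (chr16:21788020-21788049, minus strand) and -147 to -118 of Acsl1 (chr8:46470890-46470919, plus strand).
Hadhb: aatgccgcggtgATGGCgggcggggcgaga
Acad11: tccgcctcccacATGGCtttgcagcaacac
Cpt1a: gctgttttggacATGGCtttaatgagttgg
Ehhadh: gtgccctggtaaATGGCtgttttgtgaaca
Acsl1: tgggaggcgggaATGGCgccgatggggcgg
The core at Hadhb is also the match in the promoter of Hadha, read from the other strand (chromosome 5, 30155223 to 30155227), since both genes start beside each other. The remaining gene, Echs1, has 4 core matches, of which those at positions 24 to 28 and 27 to 31 overlap.

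Among the 3 bound genes, Ech1 carried the highest pileup, the number of fragments over a summit, which was recovered from the deposited values of each peak. Ech1 encodes an isomerase of dienoyl-CoA intermediates that is found in mitochondria and peroxisomes. Its cold peak (chromosome 7, 28825025 to 28825609) reached into the gene and had its summit 83 bp outside it. The peak carried 73 fragments (exact 95% Poisson interval 57.2 to 91.8), against no listed peak in the room temperature library. It ranked 19 of 1259 by the authors' −log10 q. The median pileup was 20 fragments over all cold peaks, so Ech1 stood far above the middle of its list. No other protein-coding or lncRNA gene lay within 1 kb of this summit.

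Crat, whose enzyme shuttles acetyl groups between CoA and carnitine, carried 71 fragments after cold (55.5 to 89.6; chromosome 2, 30415685 to 30416415), against 33 at room temperature (22.7 to 46.3; chromosome 2, 30415793 to 30416124). By −log10 q it ranked 34 of 1259 in the cold list and 4 of 165 in the room temperature list, where the median pileup was 13. The cold summit lay 6 bp outside Crat and the room temperature summit 35 bp inside, 41 bp apart. Crat and Ptpa, a phosphatase regulator gene, have ends 33 bp apart, and the distance to the end of Ptpa was 27 bp for the cold summit and 68 bp for the room temperature summit. The strands of these 2 genes were not used, so an end here may be the start of a gene. Which gene of this pair the peak belongs to cannot be told apart from its position.

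The pileup at Crat was 2.15 times as high after cold as at room temperature (exact 95% interval 1.40 to 3.36, for counting error only). Pairs of overlapping peaks, 1 from each library, numbered 154 where both backgrounds were 10 fragments or fewer. Some cold peaks stand in more than 1 pair. Over these pairs the ratio had a median of 3.28 (quartiles 2.57 and 4.17). Of these 154 pairs, 14 had a lower ratio than Crat. These 14 were weak, with at most 29 fragments after cold and 18 at room temperature. Among pairs about as strong as Crat after cold (56.8 to 85.2 fragments), Crat had the lowest ratio. The next lowest was 2.88, with 75 fragments after cold and 26 at room temperature. That range was chosen after seeing the data. The interval at Crat holds both 2.88 and the median of all pairs, so Crat is not separated from either beyond counting error. The lowest background of each list, divided by its smallest peak width (248 bp after cold, 245 bp at room temperature), put the cold library at 1.05 times the depth of the room temperature library. With 1 library per condition, a difference between the libraries as a whole cannot be told apart from a change in YY1 binding. Nor can bulk libraries tell whether more nuclei carried YY1 after cold or each nucleus carried more of it.

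**Figure D2:**
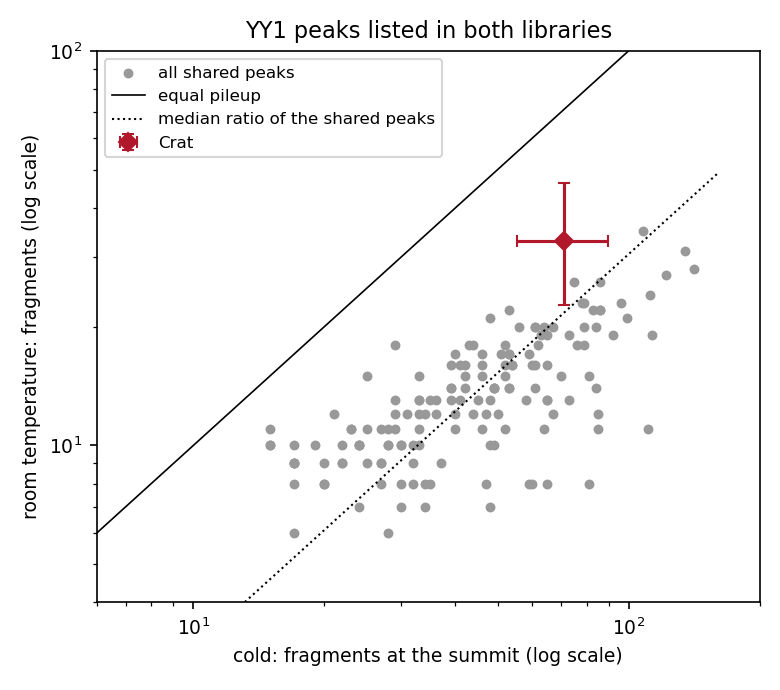
Fragments at the summit after cold (x axis) and at room temperature (y axis), both on log scales. Points are the 154 pairs of peaks listed in both libraries, and the diamond is Crat with its exact 95% Poisson intervals. Crat, at 71 and 33 fragments, lies above the dotted line of the median ratio, and every point lies below the line of equal pileup.

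Eci1 encodes the main mitochondrial enoyl-CoA isomerase, which lets unsaturated fatty acids enter the common cycle. Its cold peak (chromosome 17, 24426585 to 24426898) was weaker, with 27 fragments (17.8 to 39.3) and rank 287 of 1259, against no listed peak at room temperature. The summit lay 49 bp inside the gene and 834 bp from an end of Rnps1, a gene of RNA processing. The nearest room temperature summit to Eci1 was 257 kb away.

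A missing room temperature entry is not a measured absence, since the lowest listed pileup there was 6 fragments and weaker sites have no value. Cold peaks of like strength show how often an entry is missing. Of the 54 other cold peaks with a pileup within 20% of that of Ech1, 37 overlapped a room temperature peak (68.5%, 54.4 to 80.5), so Ech1 belonged to the smaller part without one. Of the 330 others within 20% of Eci1, 35 did (10.6%, 7.50 to 14.4), so most peaks as strong as Eci1 also had no entry. Of the 53 others within 20% of Crat, 34 did (64.2%, 49.8 to 76.9).

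**Figure D3:**
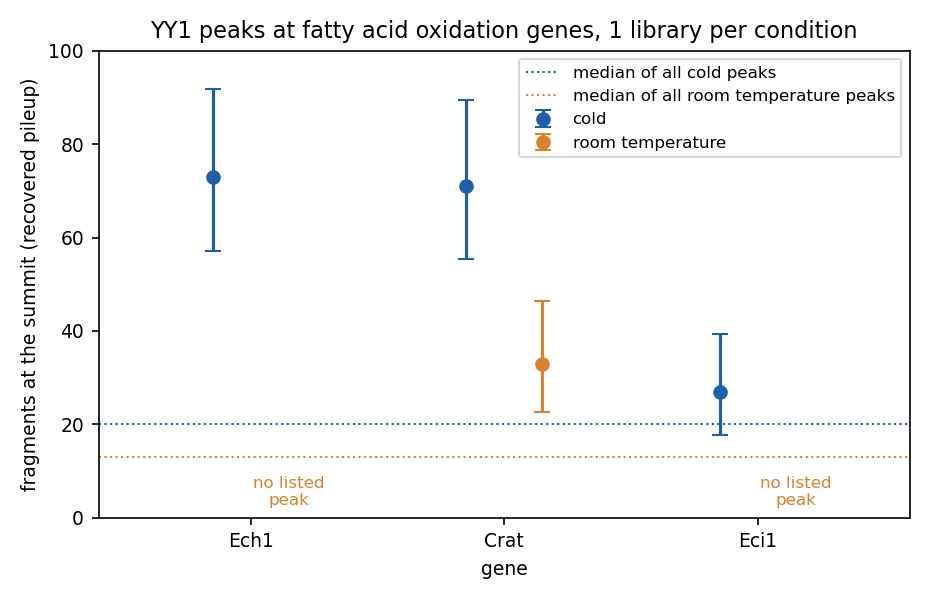
Fragments at the summit of each listed peak at Ech1, Crat and Eci1, after cold (left of each pair) and at room temperature (right), with exact 95% Poisson intervals and dotted lines at the median of each list. Ech1 and Crat, at 73 and 71 fragments after cold, stand far above the cold median of 20, and the interval of Eci1 reaches below it.

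The peaks were spread over 2 of the 5 role classes. Of 15 genes of mitochondrial oxidation, 2 had a cold peak (13.3%, 1.66 to 40.5) and 0 a room temperature peak (upper limit 21.8%). Of 6 carnitine transfer genes, 1 had a peak in each library (16.7%, 0.421 to 64.1). Among 6 genes of peroxisomal oxidation, 3 of electron transfer and 4 acyl-CoA synthetases, 0 had a peak in either library. The upper limits of these 3 counts are 45.9%, 70.8% and 60.2%, far above the 6.42% of all protein-coding genes after cold, so classes of this size cannot be told apart. Ech1 and Acad11 were counted as mitochondrial and Eci2 as peroxisomal, although these enzymes are described in both organelles. Placed the other way, each of the 2 organelle classes had 1 gene with a cold peak.

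**Figure D4:**
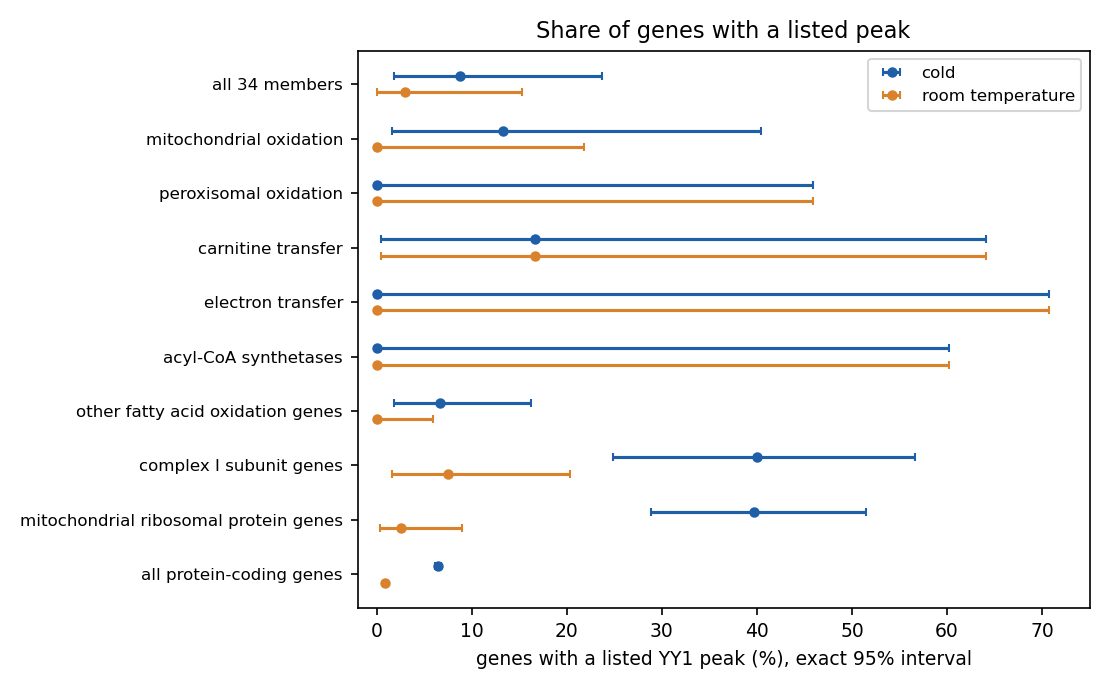
Share of genes with a listed peak (x axis, %) after cold (upper point of each pair) and at room temperature (lower point), for the 34 members, their role classes and other gene lists, with exact 95% intervals. The intervals of the members and of each class hold the cold share of all protein-coding genes, 6.42%, and the widest is that of the 3 electron transfer genes.

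The other genes of mitochondrial oxidation had no listed peak. The dehydrogenases act on chains of decreasing length, and the nearest cold summit lay 29.3 kb from Acadvl (very long chains), 3100 kb from Acadl (long), 652 kb from Acadm (medium) and 15.6 kb from Acads (short). Acads was the member nearest to the limit of 1 kb from outside, while Ech1, at 83 bp, was the farthest one within it. For the related Acad9, which also helps to assemble complex I, the distance was 2046 kb, and for Acad10 and Acad11 it was 169 kb and 135 kb.

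Echs1, the short-chain hydratase gene, was 1212 kb from a cold summit. Hadha and Hadhb, whose products form the mitochondrial trifunctional protein, were 715 kb and 685 kb away and shared that summit. The dehydrogenase gene Hadh was 503 kb away and the thiolase gene Acaa2 563 kb. Decr1, the mitochondrial dienoyl-CoA reductase gene, serves the breakdown of unsaturated fatty acids, as Ech1 and Eci1 do. Its nearest cold summit was 4663 kb away.

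The peroxisomal genes had no listed peak either. Acaa1a, a peroxisomal thiolase gene, had the nearest summit of this class, 18.5 kb away after cold and 18.4 kb at room temperature, at the kinase gene Oxsr1 in both lists. Eci2 and Decr2, which handle unsaturated chains in peroxisomes, were 1091 kb and 163 kb from a cold summit. The oxidase gene Acox3 and the multifunctional enzyme genes Ehhadh and Hsd17b4 were 477 kb, 428 kb and 2797 kb away.

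Of the carnitine genes, Cpt1a and Cpt1b encode the outer membrane enzymes that commit long chains to oxidation, as the liver and the muscle form. Their nearest cold summits were 39.2 kb and 60.5 kb away. The carnitine carrier gene Slc25a20 and the inner membrane enzyme gene Cpt2 were 99.2 kb and 725 kb away, and Crot, the peroxisomal octanoyltransferase gene, 11955 kb, the farthest of all members. The electron transfer flavoprotein genes Etfa and Etfb and the gene of its dehydrogenase, Etfdh, were 426 kb, 789 kb and 5945 kb away. Among the synthetases the distances were 471 kb for Acsl1, the main adipocyte form, 1054 kb for Acsl3, 8627 kb for Acsl4 and 1307 kb for Acsl5.

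Over the 31 members without a cold peak the median distance was 652 kb, against 547 kb for the 20481 protein-coding genes without one. A cold summit lay within 100 kb of 6 of the 31 (19.4%) and of 4049 of the 20481 (19.8%). The share of members near a listed peak was close to that of genes in general. At room temperature, in a list with far fewer entries, the distances of 33 members ran from 18.4 to 38301 kb. Their median was 8152 kb, against 4384 kb for the 21442 protein-coding genes without a peak on chromosomes that had one. The upper quartiles were 11093 kb and 10989 kb. A room temperature summit lay within 100 kb of 1 of the 33 (3.03%) and of 714 of the 21442 (3.33%).

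**Figure D5:**
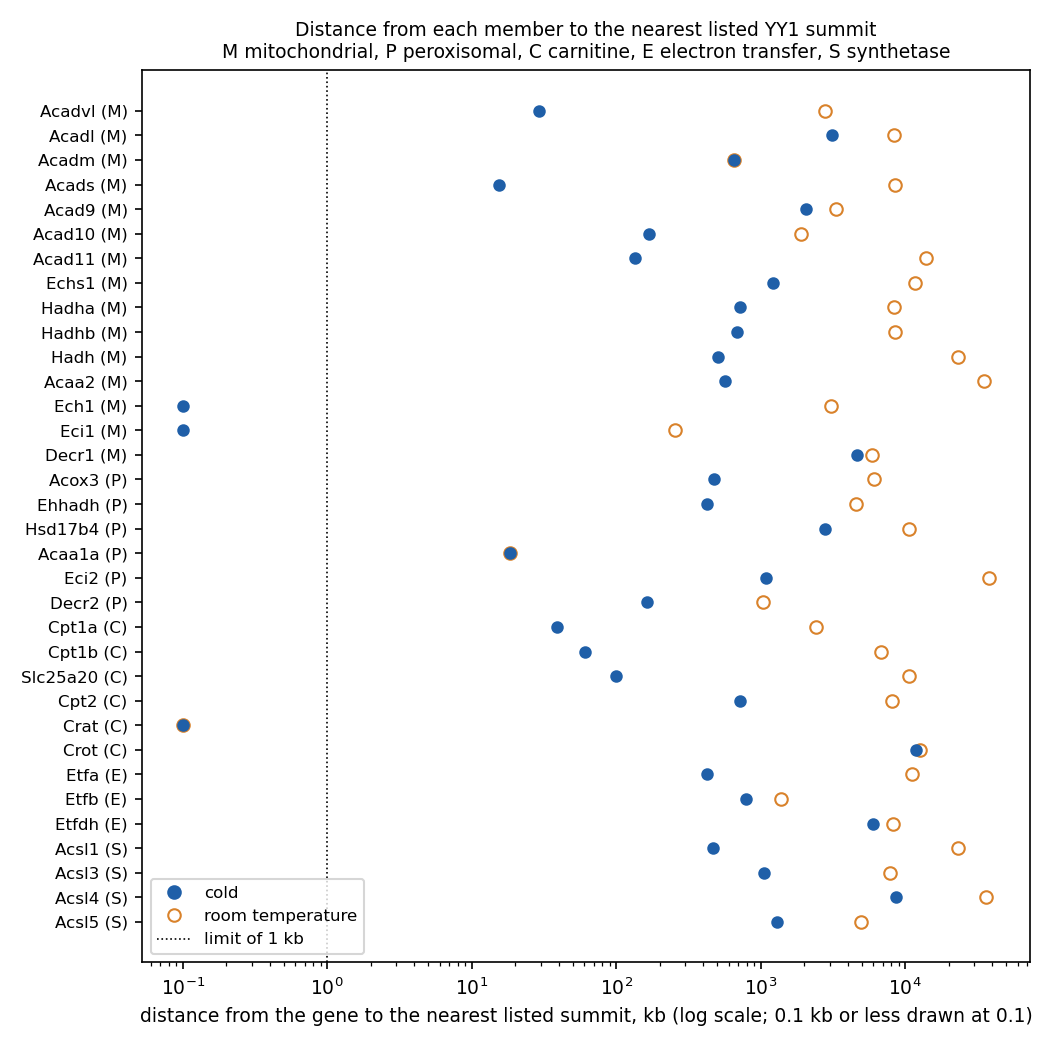
Distance in kb (log x axis) from each member to the nearest listed summit after cold (filled) and at room temperature (open), with distances up to 0.1 kb drawn at 0.1 kb and the limit of 1 kb dotted. Ech1, Eci1 and Crat lie within the limit after cold, and the other members lie from 15.6 kb to 11955 kb away.

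A list of 60 other genes of fatty acid oxidation, uptake, carnitine synthesis, peroxisome import and control had 4 members with a cold peak (6.67%, 1.85 to 16.2) and 0 at room temperature (upper limit 5.96%). Read against the 6.42% and 0.864% of all protein-coding genes, these shares are near the background. Pex7 and Pex19, which encode import factors of the peroxisome, carried 41 fragments (29.4 to 55.6) and 20 fragments (12.2 to 30.9). Pccb, a subunit gene of propionyl-CoA carboxylase, carried 30 fragments (20.2 to 42.8). Acadsb, a dehydrogenase gene for short branched chains, carried 24 (15.4 to 35.7), at a summit that lay 73 bp inside the neighbouring Ikzf5.

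Acadsb and Pccb hold the motif near their starts and are shown beside Ech1 and Eci1 for that reason, with the match in capitals. The stretches cover positions -128 to -99 of Acadsb (chr7:131410473-131410502, plus strand), where the match is on the opposite strand, and 13 to 42 of Pccb (chr9:101034842-101034871, minus strand).
Acadsb: cagctgtagccGCCATATTtgttgtgtctc
Pccb: aaaaaaaaaaaAAAATGGCggcggcgatta
The cold summit lay at position -156 at Acadsb and at position 102 at Pccb, where it was beyond the end of the searched window. The window of Pex7 held no match, and Pex19 was not searched.

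The same rule was applied to 2 other families of mitochondrial genes, which were chosen after seeing the data. Of the 34 members 8.82% had a cold peak, against 16 of 40 complex I subunit genes (40.0%, 24.9 to 56.7), 31 of 78 mitochondrial ribosomal protein genes (39.7%, 28.8 to 51.5) and 6.42% of all protein-coding genes. At room temperature the shares were 2.94% of the members, 7.50% of the complex I genes, 2.56% of the ribosomal protein genes and 0.864% of all protein-coding genes. The motif AANATGGC was in 6.90% of the member windows, in 33.3% of those of complex I genes (12 of 36), in 28.0% of those of the ribosomal protein genes (21 of 75) and in 6.05% of all promoter windows. These differences between lists were not tested.

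Of the marker lists, 0 of 8 adipocyte genes, 0 of 4 macrophage genes and 0 of 4 preadipocyte or fibroblast genes had a peak in either library, and 1 of 4 endothelial genes did after cold. Binding does not measure expression, so the labelled cell type could not be checked from these files.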

How the data were processed

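The submitters' processing notes name mm10, BWA, SAMtools, MACS2, deepTools and DESeq2. Not given in the sources used here were versions, settings, duplicate handling and the control. Each library has its own list: the authors deposited a separate peak list for each library, not a pooled one. In both deposited lists the peaks come with a score, the summit's fold over local background as a linear ratio, −log10 values of p and q, and the summit's place. Sequencing depth is unknown, and only a ratio between the libraries was estimated. Pileups were recovered from fold = (pileup + 1) / (background + 1) and the Poisson p, with every entry matched within 0.0002 on the −log10 p scale; for 1 cold entry another whole number also matched. The inversion, gene calls, distances and motif search were tested on simulated data. Intervals are exact 95% Poisson (pileups) and Clopper-Pearson (shares) and cover counting error alone, as PCR copies may be among the fragments. Peaks were shared when intervals overlapped by at least 1 bp, and each room temperature peak was paired with the overlapping cold peak of nearest summit. Genes (protein-coding, and lncRNA as neighbours) came from RefSeq's GRCm38.p6 table, which matched 34 of 34 symbols, and promoters from its sequence table. Python 3.11.15, pandas 2.3.3 and SciPy 1.17.1 were used. Coordinates are 1-based. The members and lists were chosen with earlier results of these data known. Named were all members, the genes within 1 kb of their summits and the other pathway genes with a peak. Oxsr1, Ikzf5, Pex14, Hsd17b10 and Cd36 fall outside this rule and were named after their values were seen. The comparison of peaks of like strength, the split of promoters by motif and the complex I and ribosomal lists were chosen after seeing the data.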

Additional observations from a re-analysis of the deposited data

How the results depend on the processing

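No paired analysis was possible because there is 1 library in each condition, which also means that none could be left out. Windows of 500 bp and 3 kb, gene ends only, each peak given to its nearest gene end, and a −log10 q of at least 3 kept Ech1, Eci1 and Crat as the members with a cold peak and Crat as the member with a room temperature peak. With Ech1, Acad11 and Eci2 in the other organelle class, mitochondrial oxidation had 1 gene with a cold peak and peroxisomal oxidation 1, by construction. The motif was in the promoters of 2 members, of 9 with the shorter core ATGGC and of 2 with AAGATGGC. The Crat ratio of 2.15 was 2.05 when divided by the estimated depth ratio and 2.50 as a ratio of the authors' fold enrichment. With a reciprocal overlap of 50% the pair at Crat had no value, since the overlap covered 45.4% of the cold interval. Unknown depth, the peak threshold and the missing replicates limit each comparison.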

Other observations

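Of the 59 promoter windows of the other pathway genes, 5 held AANATGGC (8.47%, 2.81 to 18.7), against 6.05% of all promoter windows. Only 17.6% of all windows with the motif held a cold summit, so a match without a listed peak is common. Among the 60 other pathway genes, 3 had AANATGGC in the promoter window and no listed cold peak. They were Pex14, a peroxisome import gene, with the match at positions 33 to 40, Hsd17b10, a mitochondrial dehydrogenase gene, at positions 9 to 16, and Cd36, the fatty acid uptake receptor gene, at positions -39 to -32. The member promoters were rich in G and C, with a median of 61.0% (50.7 to 77.0), against 52.7% over all promoters and 61.3% over those with a cold summit. They held a median of 17 CG pairs (9 to 45), against 7 over all promoters and 24 over those with a cold summit. Ech1 had 52.3% G and C and 19 CG pairs, and Eci1 61.3% and 15, both inside the range of the members without a peak.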
